A study of Rattus norvegicus with 13 samples.

Results

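The thalamus marker genes Prkcd, Ramp3, Calb2, Grid2ip, Tcf7l2, Lef1, Rgs16, Tnnt1, Synpo2 and Lhx9 were followed in RNA sequencing of the rat hypothalamus. They were chosen by name, with earlier results of these data known. Each matched 1 of the 17366 rows of the deposited table, so that 10 members were found and all 10 were tested among 11837 genes. The study fed 6 rats a high-fructose diet (55% fructose) and 7 rats standard chow (0.30% fructose) from postnatal day 25, kept in pairs. After a fast begun on day 79, every rat was killed on day 80, 1 h after it had received glucose (2 g per kg, into the abdomen) or saline, and the larger cohort had 31 and 29 rats on these injections. The sources used here do not say which of the 13 rats had glucose, which shared a cage, or their sex and strain. Each value is the level in 1 rat, in FPKM, which counts sequenced fragments per kilobase of transcript and scales them to the mapped fragments of the library. Total FPKM lay between 556902 and 608058 per rat, and the read depth of each library is unknown.

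The thalamus lies above the hypothalamus and relays sensory and motor signals to the cerebral cortex, mostly through excitatory relay neurons. Its neurons are set apart during development by transcription factors such as Gbx2, Lhx9 and Tcf7l2, the last of which, like Lef1, acts with beta-catenin in Wnt signalling and stays on in the adult thalamus. The hypothalamus is known for neuropeptide neurons, and the labelled tissue carried their markers. Pmch, which encodes melanin-concentrating hormone, stood between 1345 and 5669 FPKM in fructose rats and between 3607 and 7136 FPKM in chow rats. Agrp, a peptide of arcuate neurons, reached at most 1.06 FPKM in fructose rats and 1.92 FPKM in chow rats, and Rax, of tanycytes, at most 0.903 and 0.496 FPKM in these groups. In a bulk sample, fewer cells of a type and less RNA per cell cannot be told apart.

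Promoter windows are shown for Prkcd and Synpo2, which varied together in chow rats, and for Tnnt1, which was not correlated with Prkcd past the test there. The windows come from RefSeq on build GRCr8, run from 250 bases before to 50 bases after the gene's start, and are printed 5′ to 3′ on the gene's strand. Capitals mark a match to TAATTA, the core of LIM homeodomain motifs, or to CTTTGA, the core of the TCF and LEF motif, each searched on both strands.
Prkcd, chr16:5805790-5806089, minus strand: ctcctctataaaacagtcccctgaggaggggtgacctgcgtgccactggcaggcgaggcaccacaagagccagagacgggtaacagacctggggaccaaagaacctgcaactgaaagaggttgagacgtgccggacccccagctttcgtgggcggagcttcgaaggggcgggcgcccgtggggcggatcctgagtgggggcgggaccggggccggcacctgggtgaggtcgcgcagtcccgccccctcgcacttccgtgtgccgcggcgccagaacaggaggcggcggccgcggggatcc
Synpo2, chr2:214055795-214056094, minus strand: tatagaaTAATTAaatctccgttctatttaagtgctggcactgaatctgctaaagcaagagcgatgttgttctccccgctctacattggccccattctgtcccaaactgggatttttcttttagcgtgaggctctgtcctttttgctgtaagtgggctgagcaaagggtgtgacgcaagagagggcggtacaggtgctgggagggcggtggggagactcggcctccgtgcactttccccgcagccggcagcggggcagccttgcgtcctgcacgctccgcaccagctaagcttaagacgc
Tnnt1, chr1:78348785-78349084, plus strand: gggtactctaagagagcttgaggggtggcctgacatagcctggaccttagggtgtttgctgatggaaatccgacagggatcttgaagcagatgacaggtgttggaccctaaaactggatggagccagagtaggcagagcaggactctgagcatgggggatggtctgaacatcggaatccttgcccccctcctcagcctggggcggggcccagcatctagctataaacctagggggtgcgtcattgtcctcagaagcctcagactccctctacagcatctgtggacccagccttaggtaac
Of the 10 members, 8 were matched to a RefSeq window, Grid2ip to a pair of them, the others being Calb2 and Lhx9. TAATTA was found in 1 of these 9 windows, that of Synpo2, with its first base at position -243 from the start, against 5.36% of all 33469 windows. CTTTGA was found in 0 of 9, against 16.1% of all windows. With 1 match in all, no matches overlapped, and a match of letters is not a binding site.

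On fructose, 6 of the 10 members fell, 1 rose and 3 did not pass (limma, Benjamini-Hochberg adjusted p under 0.05 over all genes tested). Over all genes tested 3.94% passed, 2.27% lower and 1.66% higher on fructose. At an unadjusted p under 0.05, 7 members were lower and 2 higher by limma, against 10.6% and 8.59% of all genes tested (19.2% in either direction). Those that fell were Prkcd, Ramp3, Synpo2, Rgs16, Lef1 and Grid2ip, whose mean levels in fructose rats were 26.2% to 41.6% of those in chow rats. Calb2 was the member that rose, to 141% of its mean in chow rats. The median log2 fold change (fructose minus chow) was -1.34 over the 10 members and 0.00085 over all genes tested. Since the members were chosen with earlier results of these data known, these shares and medians describe them and are no independent test.

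Prkcd encodes protein kinase C delta, a signalling kinase widely used to mark relay neurons of the thalamus. Its level was 81.4, 7.83, 75.5, 18.7, 142 and 21.1 FPKM in fructose replicates 1 to 6, against 53.6, 372, 171, 202, 226, 160.3 and 358 FPKM in chow replicates 1 to 7. Fructose replicates 2, 4 and 6 lay below every chow rat, and the other 3 fructose rats lay above chow replicate 1 and below the remaining chow rats. The mean was 57.7 ± 51.6 FPKM on fructose (SD, n = 6) and 220.4 ± 112.7 FPKM on chow (SD, n = 7), and on the log2(FPKM + 0.5) scale the difference was -2.32 ± 0.60 (SE; adjusted p = 0.0452 by limma). Prkcd had the widest spread of the members in fructose rats, with its highest rat at 18.1 times its lowest, against 6.94 times in chow rats.

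Ramp3, a membrane protein that pairs with the calcitonin receptor-like receptor and shapes its ligand preference, had a lowest, median and highest level of 9.57, 27.2 and 72.5 FPKM in fructose rats, against 34.9, 94.95 and 139 FPKM in chow rats. Of the 6 fructose rats 3 lay below every chow rat, and 5 of the 7 chow rats lay above every fructose rat. The log2 fold change was -1.68 ± 0.42 (SE; by limma, adjusted p = 0.0394). Rgs16, a regulator that speeds the shut-off of G proteins, stood at 9.23, 29.1 and 57.0 FPKM in fructose rats, in the same order, against 32.8, 86.1 and 116 FPKM in chow rats. Here too 3 fructose rats lay below every chow rat, and 6 chow rats lay above every fructose rat. Its log2 fold change was -1.51 ± 0.39 (SE; by limma, adjusted p = 0.0449).

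Among the scaffold and cytoskeletal members, Grid2ip, or delphilin, which binds the glutamate receptor GluD2 and is best known from Purkinje cells, was the 1 member whose diets did not overlap. Over all genes tested 1.61% did not overlap, 0.727% with fructose rats lower and 0.879% with fructose rats higher. Its lowest, median and highest levels were 1.41, 4.65 and 6.33 FPKM in fructose rats, against 6.52, 9.503 and 13.5 FPKM in chow rats, so that the highest fructose rat and the lowest chow rat lay close together. The log2 fold change was -1.27 ± 0.27 (SE; by limma, adjusted p = 0.0274), and the exact two-sided permutation p was 0.000583, the smallest that splits of 6 and 7 rats can give, or 0.0663 adjusted over all genes. Synpo2, an actin-binding protein of the synaptopodin family known from muscle, stood at 1.57, 8.02 and 13.8 FPKM in fructose rats, against 8.78, 21.6 and 38.8 FPKM in chow rats. Its fructose replicates 2, 4 and 6 lay below every chow rat, and its log2 fold change was -1.62 ± 0.42 (SE; by limma, adjusted p = 0.0446).

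Tnnt1, slow skeletal muscle troponin T, ran the other way without passing the test. It stood at 4.04, 6.37 and 16.8 FPKM in fructose rats, against 1.39, 4.25 and 6.48 FPKM in chow rats. All 6 fructose rats lay above the chow mean and 3 above every chow rat, while 3 chow rats lay below every fructose rat. The log2 fold change was 0.95 ± 0.37 (SE; by limma, adjusted p = 0.174).

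The transcription factors differed in whether they passed. Lef1, a high-mobility-group factor of Wnt signalling, had a lowest, median and highest level of 5.01, 13.8 and 22.0 FPKM in fructose rats, against 13.4, 39.6 and 56.6 FPKM in chow rats, and fell by 1.42 on the log2 scale (-1.42 ± 0.35, SE, limma adjusted p = 0.0389). Tcf7l2, a factor of the same family, stood at 20.6, 40.2 and 89.7 FPKM in fructose rats, against 42.8, 86.2 and 106 FPKM in chow rats. Fructose replicate 5 lay above 5 of the 7 chow rats, and the log2 fold change of -0.999 ± 0.32 did not pass (SE; by limma, adjusted p = 0.0978). Lhx9, a LIM homeodomain factor of the developing thalamus, was low throughout, at 0.688, 2.33 and 5.53 FPKM in fructose rats, against 2.59, 5.17 and 7.76 FPKM in chow rats. Its log2 fold change was -0.73 ± 0.35 (SE; by limma, adjusted p = 0.280), with 3 fructose rats below every chow rat and 5 of 6 below the chow mean.

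Calb2, or calretinin, a calcium-binding protein of midline thalamic and many hypothalamic neurons, was the most abundant member in both diets and varied least. Its lowest, median and highest levels were 341, 373 and 443 FPKM in fructose rats, against 202, 283 and 356 FPKM in chow rats. Of the 6 fructose rats 3 lay above every chow rat, and 6 of the 7 chow rats lay below every fructose rat. The log2 fold change was 0.51 ± 0.11 (SE; by limma, adjusted p = 0.0288). The SD was 10.8% of the mean in fructose rats and 19.1% in chow rats, against 46.3% to 89.4% and 26.4% to 53.9% for the other 9 members in these diets.

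**Figure D1:**
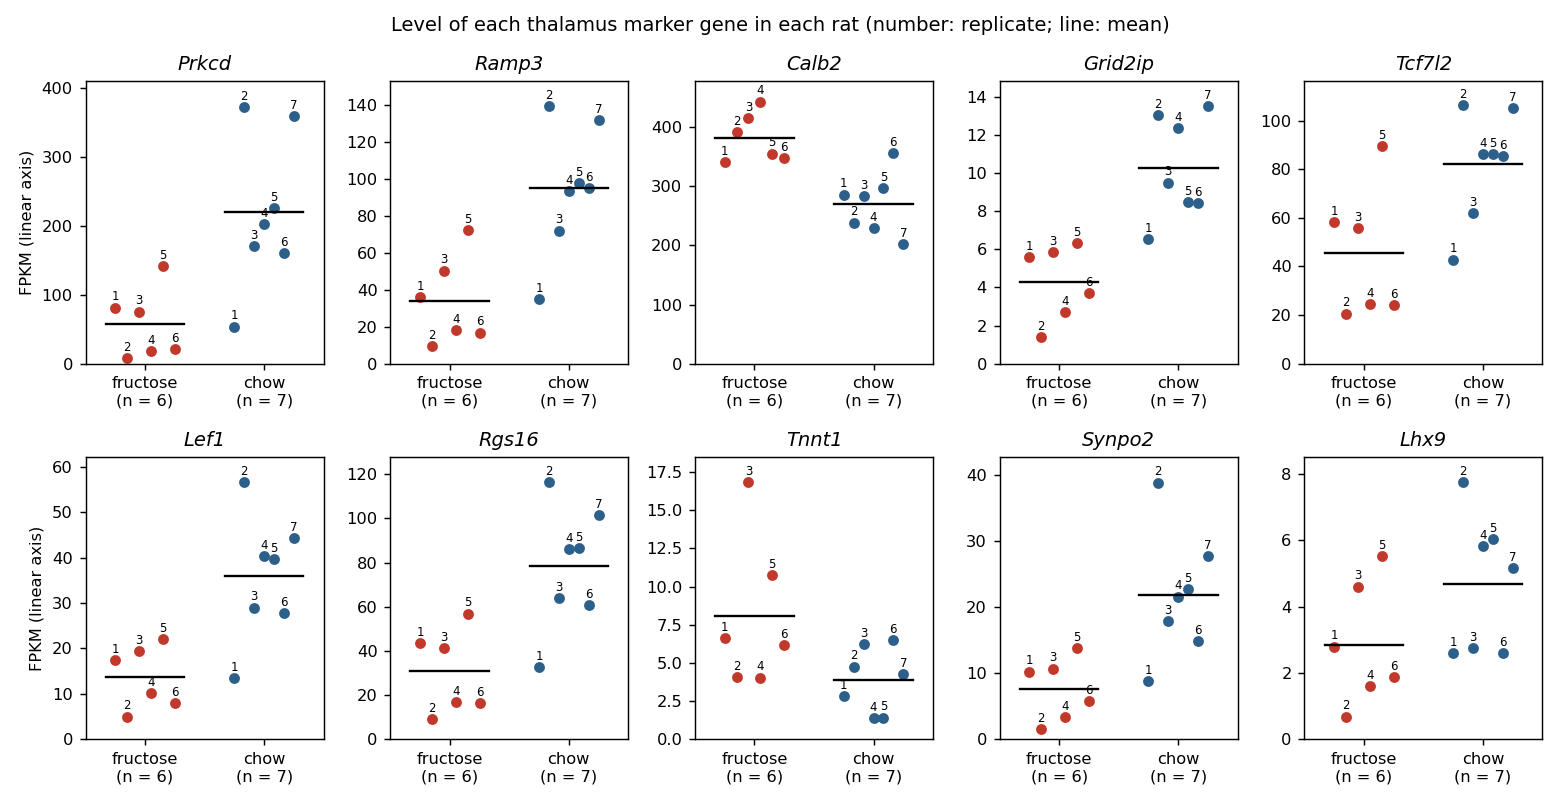
Level of each of the 10 members in FPKM (linear vertical axis from 0, a scale of its own in each panel), with 1 point per rat numbered by replicate and a line at the mean, for 6 fructose rats and 7 chow rats. Fructose replicates 2, 4 and 6 are the 3 lowest fructose rats in 9 of the panels, all but that of Calb2, and chow replicate 1 is the lowest chow rat in 8 panels.

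**Figure D2:**
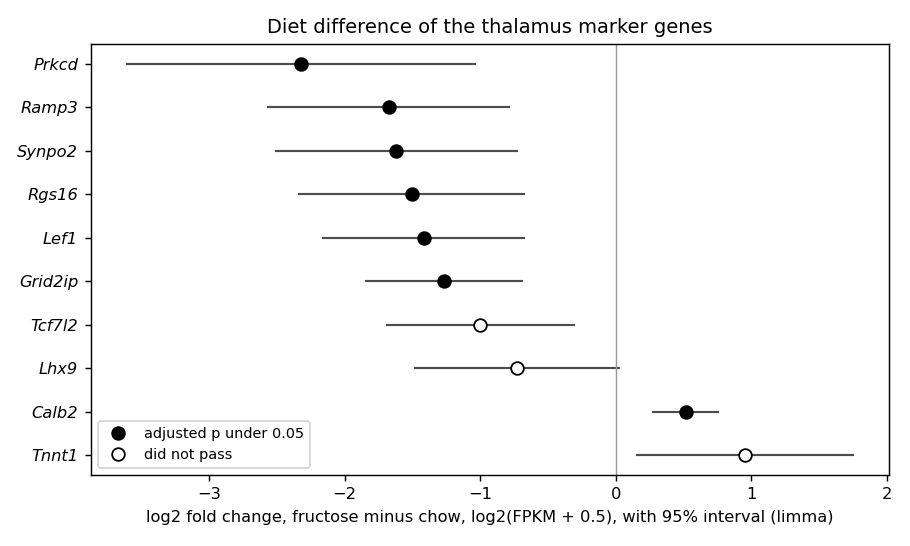
Log2 fold change (fructose minus chow) of each member with its 95% interval from limma, on the log2(FPKM + 0.5) scale. Filled points passed an adjusted p of 0.05 over all genes tested, and the values run between -2.32 for Prkcd and 0.95 for Tnnt1.

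The calls moved with single rats, and so did the size of the folds, while each fold kept its sign. The 6 members that fell came to 0 without fructose replicate 4, fructose replicate 6, chow replicate 2, chow replicate 4 or chow replicate 7. In each of these 5 fits 7 members were lower at an unadjusted p under 0.05 (limma). Over all genes tested, the calls in these fits numbered 83 to 153, against 466 with all rats. Of these, 21 to 49 were lower on fructose, against 269. The members that fell came to 1 without fructose replicate 2, chow replicate 3 or chow replicate 5, and to 2 without chow replicate 6. In the 5 fits with 0 members called lower, the log2 fold change of Prkcd lay between -2.31 and -2.12, against -2.32 with all rats. The median over the members lay between -1.29 and -1.25, against -1.34. Over all 13 fits with 1 rat left out, Prkcd ran from -2.70 without fructose replicate 5 to -1.88 without fructose replicate 2. The median over the members ran from -1.495 without chow replicate 1 to -1.102 without fructose replicate 2. Where 1 member remained called lower it was Grid2ip, and Lef1 was the other without chow replicate 6. With chow replicate 1 or fructose replicate 5 left out the count was 7, and Tcf7l2 was then called (adjusted p = 0.0410 and 0.0252). Calb2 lost its call without fructose replicate 2, fructose replicate 4, fructose replicate 6, chow replicate 2 or chow replicate 4 (adjusted p between 0.0503 and 0.0706). With no filter on low values, and with robust empirical Bayes, Grid2ip and Calb2 were the calls left. The exact permutation test called 0 members after adjustment over all genes, and 8 of 10 at an unadjusted p under 0.05, against 18.8% of all genes tested.

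In order of mean level, the members ran in fructose rats from Calb2 (382 FPKM), Prkcd (57.7), Tcf7l2 (45.5), Ramp3 (34.0), Rgs16 (30.8), Lef1 (13.7), Tnnt1 (8.07), Synpo2 (7.57) and Grid2ip (4.27) to Lhx9 (2.85). In chow rats the order was Calb2 (270.1 FPKM), Prkcd (220.4), Ramp3 (94.9), Tcf7l2 (82.0), Rgs16 (78.3), Lef1 (35.9), Synpo2 (21.7), Grid2ip (10.3), Lhx9 (4.67) and Tnnt1 (3.91). Neighbours that differed by less than the SD of either gene between rats were, on fructose, Prkcd and Tcf7l2, Tcf7l2 and Ramp3, Ramp3 and Rgs16, Tnnt1 and Synpo2, and Grid2ip and Lhx9. On chow they were Calb2 and Prkcd, Ramp3 and Tcf7l2, Tcf7l2 and Rgs16, and Lhx9 and Tnnt1.

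Within chow rats, Prkcd varied together with 7 of the members, while Calb2 and Tnnt1 did not pass the test with it. Chow replicate 1 was the lowest chow rat for 8 members and chow replicate 2 the highest for 7. Of the other 9 members, 7 were positively correlated with Prkcd over the 7 chow rats at an exact two-sided permutation p under 0.05 and 0 negatively, against 9.45% and 7.6% of the other genes tested. Adjusted over the 90 relations computed (45 pairs in each diet), all 7 passed. The closest was Rgs16 (Pearson r = 0.983, exact permutation p = 0.000198, the smallest that 7 rats can give, adjusted p = 0.00595; Spearman rho = 1.00, exact p = 0.000397, n = 7). Lef1 stood at r = 0.976 and Synpo2 at r = 0.965 (exact permutation p = 0.000397 and 0.000198, adjusted p = 0.00595 each; rho = 0.964 and 1.00, exact p = 0.00278 and 0.000397, n = 7). An r above 0.9 with Prkcd was found for 3.40% of the other genes tested, 402 in number.

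The other 4 members had larger p-values. Ramp3 had r = 0.978 (exact permutation p = 0.00317, adjusted p = 0.0130; rho = 0.893, exact p = 0.0123), and Tcf7l2 had r = 0.945 (exact permutation p = 0.00278, adjusted p = 0.0125; rho = 0.929, exact p = 0.00675). Grid2ip had r = 0.872 (exact permutation p = 0.00734, adjusted p = 0.0179; rho = 0.857, exact p = 0.0238), and Lhx9 had r = 0.753 (exact permutation p = 0.0232, adjusted p = 0.0387; rho = 0.893, exact p = 0.0123). Without chow replicates 1 and 2, the rats farthest from the median of Prkcd, the p of Ramp3, Tcf7l2, Grid2ip and Lhx9 missed the threshold (r = 0.856, 0.740, 0.700 and 0.643 over 5 rats, exact permutation p = 0.117, 0.192, 0.167 and 0.233). For Rgs16, Synpo2 and Lef1 it did not (r = 0.906, 0.929 and 0.851, exact permutation p = 0.00833, 0.0167 and 0.0417). An r of 0.856 missed the threshold and one of 0.851 passed, so over 5 rats the p does not show whether a relation rests on the 2 left out. With 1 chow rat left out at a time, Ramp3 and Tcf7l2 passed in all 7 cases, with r of at least 0.911 and 0.812. Grid2ip also missed it without chow replicate 1 alone (exact permutation p = 0.106), and Lhx9 without chow replicate 1, 2 or 5 (0.0903, 0.0681 and 0.0653).

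The 28 pairs among the 8 members other than Calb2 and Tnnt1, a division made after the values were seen, had r between 0.709 and 0.997 with a median of 0.903 over the 7 chow rats. Of these pairs 25 passed the adjustment over the 90 relations, and the 3 that did not were Lhx9 with Ramp3, Tcf7l2 and Grid2ip (exact permutation test, adjusted p = 0.0736, 0.0776 and 0.121). The highest was that of Lef1 and Rgs16, and the lowest that of Ramp3 and Lhx9. Without the 2 rats farthest from the median of the first gene of each pair, all 28 were still above 0, between 0.477 and 0.993. Of all 45 pairs of members 25 passed with a positive r, and the median r was 0.8295. Leaving out Calb2 and Tnnt1 therefore raised both the share that passed and the median. Over all pairs of tested genes, 0.664% had an r above 0.9 in chow rats. The share of them passing an adjusted test was not computed.

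Calb2 did not pass the test with Prkcd in chow rats, at r = -0.522 (exact permutation p = 0.232, adjusted p = 0.303; rho = -0.571, exact p = 0.2) and its r was below 0 with each of the 8 and 0.215 with Tnnt1. At an exact permutation p under 0.05, 0 members were positively and 1 negatively correlated with Calb2, against 2.83% and 2.27% of the other genes tested. Its strongest relation was with Grid2ip, at r = -0.791, which did not pass the adjustment (exact permutation p = 0.0325, adjusted p = 0.0533; rho = -0.857, exact p = 0.0238, n = 7). Without chow replicates 6 and 7 Calb2 and Grid2ip stood at r = -0.851 over 5 rats. Tnnt1 had r = 0.0944 with Prkcd (exact permutation p = 0.862, adjusted p = 0.913; rho = -0.143, exact p = 0.783), a value that changed sign without chow replicate 1 or 2. With Tnnt1, 0 members were correlated at an exact permutation p under 0.05 in either direction, against 1.17% (positive) and 1.08% (negative) of the other genes tested. Its lowest chow rats were replicates 4 and 5, at 1.39 and 1.42 FPKM, in which Prkcd stood at 202 and 226 FPKM.

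**Figure D3:**
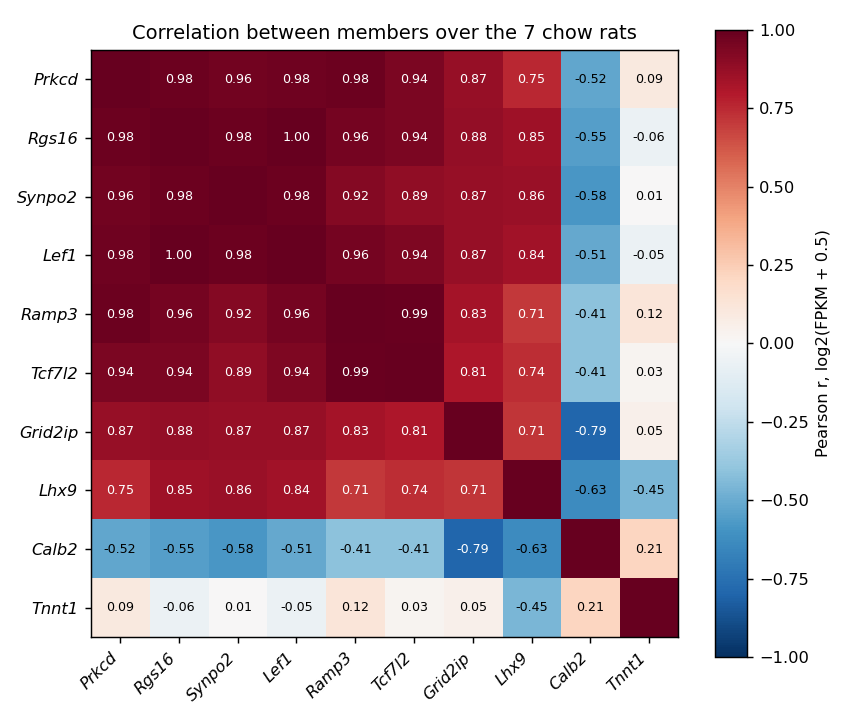
Pearson r of log2(FPKM + 0.5) for each pair of the 10 members over the 7 chow rats, from -1 (blue) to 1 (red), with the value printed in each cell. The block of 8 genes from Prkcd to Lhx9 holds values of 0.71 to 1.00, the Calb2 row is below 0 with each of them, and the Tnnt1 row lies between -0.06 and 0.12 with 7 of them and at -0.45 with Lhx9.

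In fructose rats Prkcd fell into a low and a high set of 3 animals. No correlation is therefore given there, and none could be tested inside sets of that size. Prkcd was at 7.83, 18.7 and 21.1 FPKM in replicates 2, 4 and 6 and at 81.4, 75.5 and 142 FPKM in replicates 1, 3 and 5. The same 3 rats were the lowest for 9 members, though not always with a wide gap to the others. Lhx9, for example, stood at 1.88 FPKM in fructose replicate 6 and at 2.79 FPKM in fructose replicate 1. For Tcf7l2 they stood at 20.6, 24.5 and 24.2 FPKM, with replicates 1, 3 and 5 at 58.4, 55.8 and 89.7 FPKM. Tnnt1 shared this order in fructose rats, with replicates 2, 4 and 6 at 4.05, 4.04 and 6.14 FPKM and the others at 6.61, 16.8 and 10.7 FPKM, although its r with Prkcd in chow rats was 0.0944; the difference between diets in this was not tested. Calb2 was the exception, with its lowest fructose rats in replicates 1, 5 and 6. Replicate 2 was the lowest fructose rat for 8 members and replicate 5 the highest for 8.

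**Figure D4:**
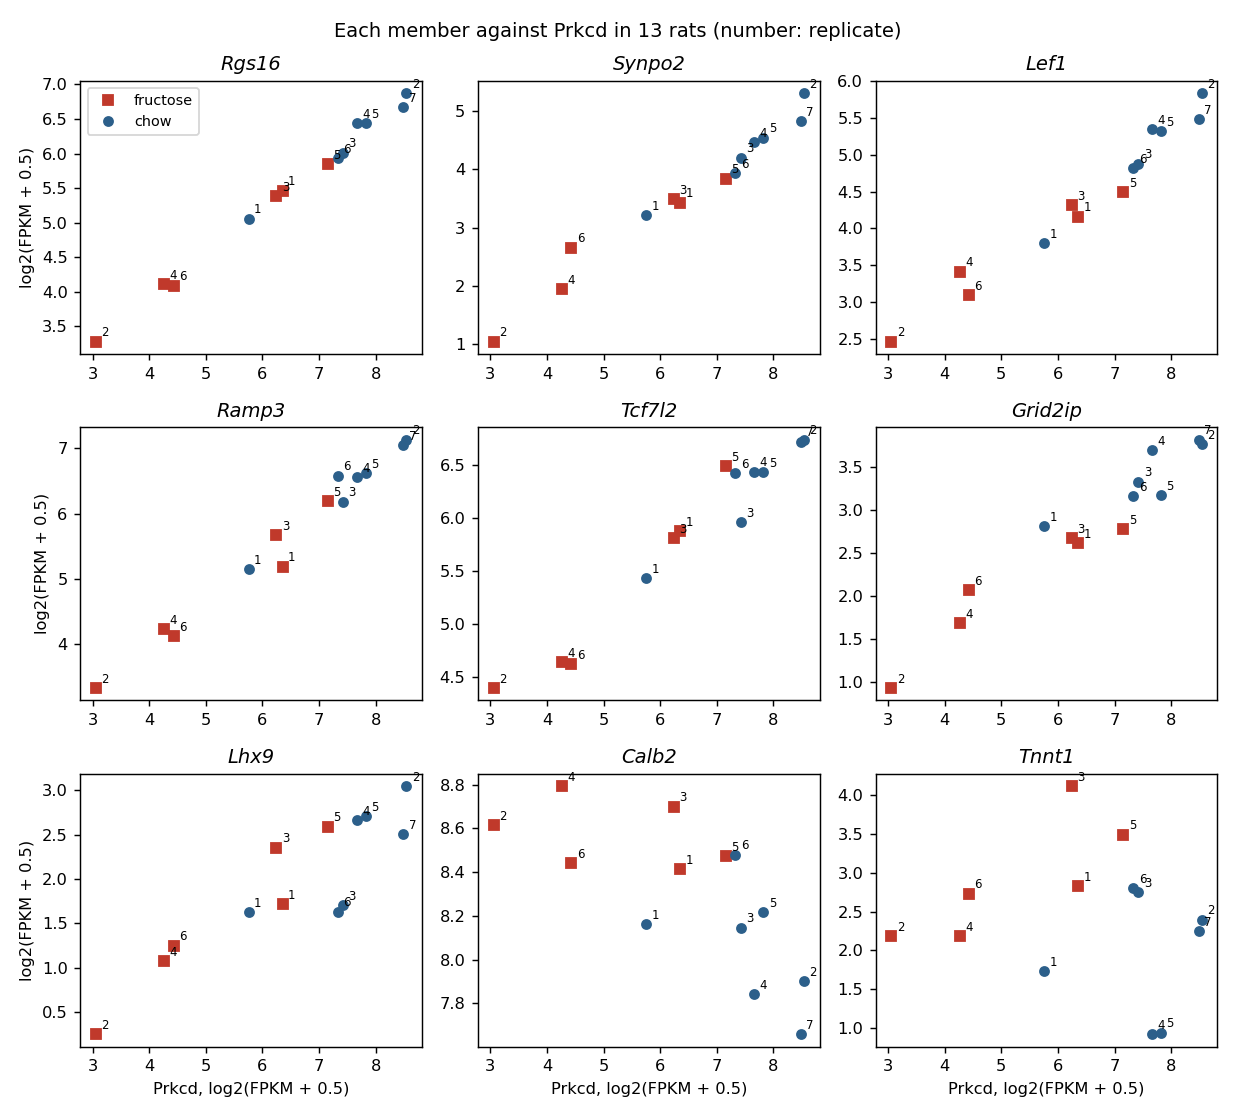
Each of the other 9 members (vertical axis) against Prkcd (horizontal axis), both as log2(FPKM + 0.5), with 1 point per rat numbered by replicate, squares for 6 fructose rats and circles for 7 chow rats. In the panels other than those of Calb2 and Tnnt1 the levels broadly rise with Prkcd, with fructose replicate 2 at the low end. The rats do not all lie on 1 line. For Tcf7l2, fructose replicate 5 (6.49) lies above chow replicate 3 (5.96), though its Prkcd is lower (7.15 against 7.42). The rise over both diets was not tested.

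The hypothalamic peptide genes Pmch, Hcrt and Oxt were ordered in the other direction in the same fructose rats. Avp of the same list shared this order. It stood at 199, 214 and 110 FPKM in fructose replicates 2, 4 and 6, and at 0.451, 2.11 and 1.99 FPKM in replicates 1, 3 and 5. In chow rats Avp was highest in replicate 4 (601 FPKM, against 512 FPKM in replicate 1). Pomc, Agrp, Trh and Ghrh, also hypothalamic peptide genes, were not compared rat by rat. Pmch stood at 4957, 5669 and 4527 FPKM in fructose replicates 2, 4 and 6, with replicates 1, 3 and 5 at 1974, 2489 and 1345 FPKM. Hcrt, the orexin precursor, stood at 742, 842 and 792 FPKM in replicates 2, 4 and 6, with 254, 314 and 217 FPKM in replicates 1, 3 and 5. Oxt, oxytocin, was at 359, 159 and 53.8 FPKM in replicates 2, 4 and 6, with 2.04, 2.42 and 3.05 FPKM in the others. In chow rats Pmch and Hcrt were highest in replicate 1 (7136 and 1012 FPKM), the rat lowest for 8 of the thalamus genes, but Oxt was highest in replicate 4 (1455 FPKM, against 718 FPKM in replicate 1), where Prkcd was at its chow median. Chow replicate 2, the highest for 7 members, had Pmch at 4902 FPKM and Hcrt at 661 FPKM, inside the range of the other chow rats, so the opposite order did not extend to all chow rats. The part of this in the diet difference of the thalamus genes was not tested.

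The genes most like Prkcd outside the members were named by Pearson r over 13 rats on values centred within each diet, as a description without a test, since the 2 sets of fructose rats weigh in it. They were Gabrd, the delta subunit of the GABA-A receptor (r = 0.989), Gabra4, its alpha 4 subunit (0.987), Wnt9b, a secreted Wnt ligand (0.986), Ntng1, a netrin-family adhesion protein of axons (0.982), and Fbn2, a microfibril protein (0.981). Rgs16 stood above all of them at 0.994, and 3 of the 20 and 6 of the 100 genes most like Prkcd were members. Gabrd, Gabra4 and Ntng1, which are also in the list of other thalamus genes below, were lower on fructose past the test. Their log2 fold changes were -2.24 ± 0.56, -1.44 ± 0.38 and -1.20 ± 0.27 (SE, limma adjusted p = 0.0416, 0.0477 and 0.0296). Wnt9b lay between 0.171 and 6.503 FPKM in fructose rats and between 2.15 and 22.0 FPKM in chow rats. Its log2 fold change of -1.98 ± 0.55 did not pass (SE, limma adjusted p = 0.0597). Fbn2 did not pass either, at -0.71 ± 0.26 (SE, limma adjusted p = 0.147). The genes most like Calb2 were Col11a1, a fibrillar collagen (r = 0.904), Doc2a, a calcium sensor of vesicle release (0.8996), and Olfm2, olfactomedin 2 (0.891), and 0 members were among the 100 nearest to it. None of these 3 passed the test between diets by limma (adjusted p = 0.0698, 0.320 and 0.974).

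The list of 14 other thalamus genes was chosen with earlier results of these data known. Of these genes, 9 were lower on fructose past the test, 0 were higher and 5 missed it (limma). Over all genes tested, 2.27% were lower and 1.66% higher past it. The median log2 fold change was -0.96 over the 14 genes, against 0.00085 over all genes tested. With the smallest p stood Zic4 and Zic1, zinc finger factors, and Kcnc2, a potassium channel of fast-spiking neurons, with log2 fold changes of -1.08 ± 0.16, -1.24 ± 0.23 and -1.08 ± 0.23 (SE; by limma, adjusted p = 0.00572, 0.0161 and 0.0258). Zic4 lay between 1.45 and 2.75 FPKM in fructose rats, below every chow rat (3.27 to 7.21 FPKM). The 5 that did not pass, named after their values were seen, were Gbx2 (-1.11 ± 0.42), Rora (-0.27 ± 0.22), Foxp2 (-0.17 ± 0.17), Slc17a6 (-0.24 ± 0.13) and Lhx2 (-0.26 ± 0.20). The count of 9 came to 2 without fructose replicate 2, 4 or 6 or chow replicate 2, 4 or 7, to 3 without chow replicate 5, to 5 without chow replicate 3 or with no filter on low values, to 6 without chow replicate 6 or with robust empirical Bayes, and to 0 by the exact permutation test.

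Some genes listed as markers of other tissues and cells also differed between diets (limma, adjusted p under 0.05). Over all genes tested, 2.27% were lower and 1.66% higher on fructose at this threshold. The exact permutation test called 0 genes after adjustment, so none of those below. Of 5 tested genes of midbrain dopamine neurons 5 rose, and the summed level of the list was 100.2 to 374 FPKM in fructose rats and 23.5 to 45.3 FPKM in chow rats. Of 4 red blood cell genes 4 rose (summed level 494 to 2214 FPKM in fructose rats and 238 to 615 FPKM in chow rats). Of 5 genes of the prethalamus and zona incerta 1 fell, Pax6, with 4 not passing (17.9 to 41.7 FPKM in fructose rats and 31.1 to 66.3 FPKM in chow rats). Of 6 striatal genes 1 rose, Ppp1r1b (63.1 to 90.7 FPKM summed in fructose rats and 59.3 to 70.9 FPKM in chow rats). Ppp1r1b alone stood at 38.8 to 62.0 FPKM in fructose rats and 33.2 to 40.1 FPKM in chow rats. Drd1 of this list was lower on fructose at an unadjusted p of 0.0124 (limma, adjusted p = 0.127). Limma called 0 of 5 habenula genes, 0 of 12 hypothalamus genes and 0 of 3 genes of the cortex and hippocampus. It also called 0 of 3 choroid plexus genes and 0 of 2 pituitary genes. At an unadjusted p under 0.05 (limma) these lists held 1, 1, 2, 1 and 0 genes, against 19.2% of all genes tested. Those of the cortex and hippocampus were 1 higher and 1 lower on fructose, and the others were lower. The summed level of the hypothalamus genes was 1589 to 6998 FPKM in fructose rats and 4094 to 9526 FPKM in chow rats. Pmch alone made up 1345 to 5669 FPKM in fructose rats and 3607 to 7136 FPKM in chow rats, so the sum mainly follows Pmch. The median log2 fold change of the tested hypothalamus genes was -0.15. The summed level of the habenula genes was 17.3 to 42.3 FPKM in fructose rats and 32.7 to 53.3 FPKM in chow rats. Slc17a7, a vesicular glutamate transporter in the cortex list, had a log2 fold change of -1.38 ± 0.48 (SE; by limma, adjusted p = 0.118), and Prl, in the pituitary list, was listed at 0 in all 13 rats. The part of these tissues in the thalamus result was not tested.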

How the data were processed

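RNA of the whole hypothalamus of 6 fructose rats and 7 chow rats was measured, with 1 library per rat made from total RNA, per the labels' protocols. The deposited values are FPKM in 1 table, and, per the submitters' processing notes, the tools were Cufflinks 2.1.1, Cuffdiff and STAR 2.3.0e, on build rn5. The sources used here do not give the settings or the scaling of the libraries. Each column was assigned to a rat by its title; replicate numbers follow accession order and pair nothing. No reads were recovered: the most frequent ratio between low values of 2 rats held under 10% of the rows compared, so the depth is unknown and precision rests on the spread between rats, which may be partly technical.

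Values were taken as log2(FPKM + 0.5), which understates the change of low genes. Testing took the genes whose mean reached 0.5 FPKM and was done in R 4.3.3 by limma 3.58.1 (two-sided, moderated with an intensity trend), with adjustment over all 11837. Exact permutation tests ran over every split of the 13 rats, and over all 5040 pairings of 7 chow rats for correlations, on the size of r. Correlations in fructose rats were computed and are counted in the 90 relations. They are not given, since those rats fell into 2 sets by their level of Prkcd. The fit and the correlation test were tested on simulated data.

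The members and lists were chosen with earlier results of these data known. Of 79 listed symbols 76 were matched, 2 by a RefSeq synonym and 1 in a joined row. Genes named are the 10 members, at most the 3 of each list with the smallest p, the 5 genes most like Prkcd and the 3 most like Calb2, with predicted symbols passed over; names outside this rule were picked with their values in view. Tried as alternatives were rats left out, permutation tests, Spearman rho, linear FPKM, robust empirical Bayes, array weights, median-ratio scaling, quantile normalization, pseudocounts of 0.1 and 1, a minimum mean of 2 FPKM and no filter.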

Additional observations from a re-analysis of the deposited data

How the results depend on the processing

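The direction of each member's diet difference was kept under all 9 other settings and all 13 fits with 1 rat left out. With no filter, a minimum mean of 2 FPKM, robust empirical Bayes or the permutation test, the fold change itself cannot move. The kept direction under those settings was therefore fixed in advance. Members lower on fructose numbered 6, between 0 and 7 with 1 rat left out, 1 with no filter on low values, 1 with robust empirical Bayes and 0 by the exact permutation test. Members higher numbered 1, between 0 and 1 with 1 rat left out and 0 by the permutation test. Genes called numbered 466, between 83 and 859 with 1 rat left out, 308 with no filter, 1019 with array weights and 0 by the permutation test (2223 at an unadjusted p under 0.05). Members correlated with Prkcd in chow rats numbered 7, and 3 without the 2 rats farthest from the median of Prkcd, where the median r over the 45 pairs was 0.596 against 0.8295 (leave-one-out values between 5 and 7 members and between 0.712 and 0.875). The r of Tnnt1 with Prkcd, 0.0944, was -0.226 without those 2 rats, -0.143 as Spearman rho, and between -0.0376 and 0.198 with 1 chow rat left out. Fewer rats were fitted in the leave-one-out and 5-rat settings; otherwise the cause was not tested. The alternatives of the correlations in fructose rats were not run. No paired analysis was possible because replicate numbers were given in accession order and pair no rats. The unknown depth limits what can be said of the members that stood below 2 FPKM in at least 1 rat, Lhx9, Grid2ip and Synpo2 in fructose rats and Tnnt1 in chow rats.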
